A study of Mus musculus with 18 samples.

Results

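The genes described here are 10 markers and regulators of the adipogenic, osteogenic and chondrogenic fates, the mesenchymal fates other than muscle. They were picked by symbol from the 55450 genes of a count table: Pparg, Cebpa, Fabp4, Adipoq and Prdm16 for fat, Runx2, Sp7, Alpl and Bglap for bone, and Sox9 for cartilage. All 10 were matched to 1 Ensembl gene each. Of the 10, 7 passed the filter on low counts and were tested. Adipoq, Prdm16 and Bglap did not pass it and are given as counts.

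In mesenchymal progenitors, a few transcription factors commit cells to a lineage and then switch on the genes of the mature cell. Pparg, a nuclear receptor, and Cebpa, a leucine zipper factor, maintain each other and drive fat cell differentiation. Runx2 acts upstream of Sp7 (osterix) in the bone lineage, and Sox9 drives the collagen and proteoglycan genes of cartilage. C2C12, the mouse myoblast line used here, fuses into muscle fibres when serum is reduced, and is known to turn toward bone when given a bone morphogenetic protein.

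Polyadenylated RNA was sequenced from 3 C2C12 lines, each as myoblasts in growth medium and as myotubes on day 3 in differentiation medium with horse serum, with 3 libraries (A, B and C) in each of the 6 groups. The control was a sorted population that took up the pX458 vector (Cas9 with EGFP) alone and was not cloned. Line 2-4, labelled as an overexpressor of the Dlk1-Dio3 cluster of noncoding RNAs, and line 2-7, labelled as a knockout of it, were each 1 clone grown from a single cell after Cas9 deletion in the proximal promoter of Meg3. Genotype, clone and the cloning step cannot be told apart, and nothing in the labels says that the 3 libraries of a group are separate cultures, so the p-values measure only the spread between these libraries, which may be technical. The comparisons ask how the dosage of the cluster bears on the state of muscle cells and on their differentiation, here for the alternative fates.

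Depth ran from 41544358 to 79140702 counts per library. Meg3, the targeted gene, was counted 5222 to 7763 times in each of the 6 overexpressor libraries and at 0 in the 12 others, so it does not separate the line labelled knockout from control, and directions given for that line rest on its label. All 12 muscle markers checked were detected in every group. Their summed level, in CPM (counts scaled to the depth of a library with its TMM factor), was 1421 to 1660 in control, 2672 to 3406 in overexpressor and 14126 to 17541 in knockout myoblasts, and 18001 to 18755, 28459 to 31971 and 43502 to 52390 in the myotubes of the same lines. The muscle markers therefore moved with every comparison below, and their part in the results was not tested. Markers of endothelium, blood and epithelium summed to at most 0.559, 2.67 and 2.38 CPM in any library. Twist1, a mesenchymal regulator, was listed at 0 in all 18 libraries.

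Sequences upstream of the members were read from RefSeq (GRCm38.p6) and searched on both strands for 4 motifs. These were TGTGGT for RUNX factors, TTGCNNAA for C/EBP factors, CAGCTG for the E-box of myogenic factors and AACAATG for SOX9. Over 32851 windows of 250 bases upstream of annotated starts, 14.0% held the RUNX letters, 9.56% the C/EBP letters, 13.0% the E-box and 3.29% the SOX9 letters. A match describes the letters only. The third annotated start of Pparg is shown because the levels of Pparg and Cebpa, a C/EBP factor, are set side by side below, and because it is the start of Pparg with matches. The windows of the other 2 starts held none of the 4 motifs, and 193 and 57 of their 250 bases are annotated exon. Counts per gene do not show which start these cells use. The window of the third, on the plus strand at chr6:115421816-115422065, held 2 C/EBP matches (capitals), at positions -215 to -208 and -16 to -9 from the start.
Pparg: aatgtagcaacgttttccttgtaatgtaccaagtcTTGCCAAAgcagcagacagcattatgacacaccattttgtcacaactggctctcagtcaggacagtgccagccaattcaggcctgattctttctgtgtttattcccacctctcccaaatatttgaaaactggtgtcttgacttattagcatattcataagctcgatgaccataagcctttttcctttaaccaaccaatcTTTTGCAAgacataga

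The RUNX letters were found before the RefSeq starts of Runx2 itself and of Bglap, the osteocalcin gene, and the 30 bases around each match are shown because Runx2 was the bone regulator with the clearest changes. In both the match reads ACCACA (capitals), the reverse complement of the motif, on the minus strand. It lies at positions -80 to -75 from the start of Runx2 (chr17:44814690-44814719) and at -132 to -127 for Bglap (chr3:88384581-88384610). The RefSeq start of Runx2 lies inside the gene as GENCODE draws it, and 170 of the 250 bases of its window are annotated exon. That window also held 1 C/EBP match, at -48 to -41.
Runx2: gtgaggtcacaaACCACAtgattctgtctc
Bglap: ccgcaatcacctACCACAgcatcctttggg

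The upstream start of Alpl is shown because Alpl had the largest fold differences among the members. Its window (minus strand, chr4:137796385-137796634) held 1 E-box, in capitals, at -176 to -171 and none of the other motifs. The windows of the second start of Alpl, of Cebpa and of Prdm16 held none of the 4 motifs, and that of Adipoq held 1 E-box, at -61 to -56. Fabp4, Sp7, Sox9 and Bglap2 have no entry in the table used.
Alpl: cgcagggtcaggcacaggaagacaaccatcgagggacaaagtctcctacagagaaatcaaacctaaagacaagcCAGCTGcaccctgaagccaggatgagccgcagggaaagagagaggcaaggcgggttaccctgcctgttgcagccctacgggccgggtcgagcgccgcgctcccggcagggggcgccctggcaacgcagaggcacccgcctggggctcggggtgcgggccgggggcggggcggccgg

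The members were detected at very different depths. Pparg, Cebpa, Runx2 and Sox9 had 9223, 23521, 48923 and 89332 counts over the 18 libraries. Fabp4, Sp7 and Alpl had 163, 208 and 148, Bglap 14 and Adipoq 8. Prdm16, a regulator of brown fat, had 0 counts, which over all libraries allows up to 0.00305 CPM (3 counts, counting error only). Fabp4, Adipoq, Alpl and Bglap, the members that are not regulators, thus had few counts, the highest being 56 counts of Alpl in a control myotube library.

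Among the 4 abundant regulators, the order of levels per kilobase of merged exon differed between the lines. In control myoblasts Sox9 stood at 22.7 CPM per kb, Cebpa at 14.6, Runx2 at 11.3 and Pparg at 3.86, and no neighbours in that order overlapped. In overexpressor myoblasts Pparg stood second, at 6.52 CPM per kb, behind Sox9 at 43.9 and ahead of Runx2 at 4.79 and Cebpa at 4.55, whose libraries overlapped. The order in knockout myoblasts was that of control, at 27.6, 15.4, 6.34 and 2.07 CPM per kb. In control myotubes Sox9 and Cebpa overlapped, at 11.9 and 11.8 CPM per kb, and in overexpressor myotubes Pparg and Cebpa overlapped, at 2.60 and 2.49. Knockout myotubes had Sox9 at 13.7, Cebpa at 8.08, Runx2 at 1.50 and Pparg at 1.29 CPM per kb, the last pair overlapping.

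**Figure D1:**
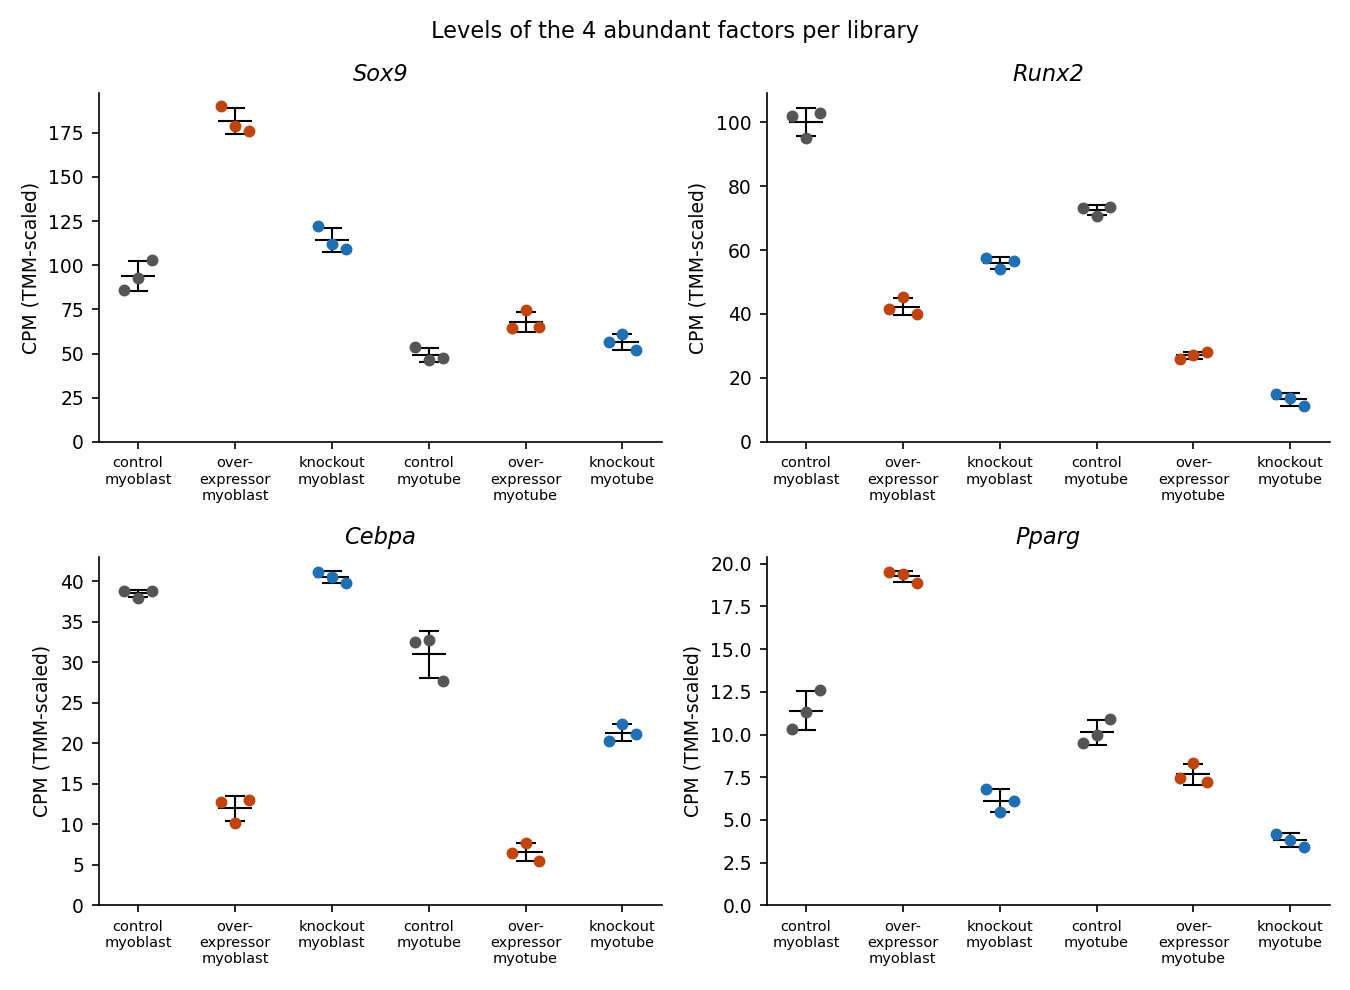
Level of the 4 abundant regulators in every library, in CPM (TMM-scaled; vertical axes start at 0), by line and stage. Points are libraries, the horizontal mark is the mean of 3 and the bar its SD. The overexpressor myoblasts are highest for Sox9 and Pparg, and the control myoblasts are highest for Runx2.

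Against the control, 5 of the 10 members were called in overexpressor myoblasts, where 40.4% of all tested genes were called. Called means an adjusted p under 0.05 in edgeR's quasi-likelihood test. Of these members 2 were higher and 3 lower, against 20.7% and 19.7% of all genes. In knockout myoblasts 4 members were called (against 53.0% of all genes), 1 higher and 3 lower (against 26.4% and 26.6%). In overexpressor myotubes 5 were called (against 57.1%), 1 higher and 4 lower (against 26.2% and 30.9%). In knockout myotubes 6 were called (against 68.0%), 2 higher and 4 lower (against 31.0% and 37.0%). The shares refer to all tested genes, and of the members 7 were tested, so that 5 called members are 71.4% of those tested, 4 are 57.1% and 6 are 85.7%. With so few genes, some of them tested only because they are high in 1 group, these counts are not read as a result about the members. Overexpressor and knockout, compared directly, gave 4 called members in myoblasts (against 52.6%), 2 higher and 2 lower in the overexpressor (against 25.7% and 26.9%). In myotubes they gave 6 (against 59.7%), 4 higher and 2 lower (against 30.6% and 29.1%). Comparisons of the 2 clones with control share the control libraries.

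Pparg was higher in the overexpressor than in control as myoblasts and lower in the knockout at both stages. The gene (chromosome 6, 115360951 to 115490399, plus strand, GRCm38) encodes the receptor that fat cell differentiation depends on. Its level was 10.3, 11.3 and 12.6 CPM in control myoblasts A, B and C, 19.5, 19.4 and 18.9 in overexpressor myoblasts and 6.80, 5.46 and 6.10 in knockout myoblasts. The 3 groups did not overlap. The overexpressor stood 1.69-fold above control (log2 fold change 0.76, SE 0.11, adjusted p = 1.22e-05) and the knockout 1.86-fold below (-0.90, SE 0.11, adjusted p = 1.33e-06).

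In myotubes Pparg read 9.49, 9.98 and 10.9 CPM in control, 7.44, 8.33 and 7.22 in the overexpressor, and 4.20, 3.85 and 3.41 in the knockout. Again no groups overlapped, but here the overexpressor lay below control. The overexpressor difference was 1.32-fold (log2 fold change -0.40, SE 0.11, adjusted p = 0.00356). That call was lost with library totals in place of TMM (adjusted p = 0.0639), in a fit of the 2 groups alone (adjusted p = 0.0533) and without overexpressor myotube library C (adjusted p = 0.0756). The knockout myotubes were 2.64-fold lower than control (-1.40, SE 0.11, adjusted p = 3.72e-09), and the overexpressor exceeded the knockout at both stages (1.65 in myoblasts and 1.00 in myotubes).

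Cebpa, the partner of Pparg in fat cells, went the other way in overexpressor myoblasts. It lies on chromosome 7, 35119293 to 35121928, plus strand, as a gene without introns. Control myoblasts read 38.8, 38.0 and 38.8 CPM, overexpressor myoblasts 12.8, 10.2 and 13.0 and knockout myoblasts 41.2, 40.6 and 39.8. The overexpressor libraries lay far under the rest. Their mean was 3.21-fold lower than control (log2 fold change -1.68, SE 0.11, adjusted p = 6.93e-10). Between knockout and control myoblasts no difference was called (0.071, 95% interval -0.15 to 0.29, adjusted p = 0.602), although the 3 knockout libraries all lay above the 3 control ones.

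Control myotubes read 32.5, 32.8 and 27.7 CPM for Cebpa, overexpressor myotubes 6.50, 7.70 and 5.49, and knockout myotubes 20.3, 22.4 and 21.2. All 3 groups were apart. The overexpressor was 4.72-fold lower than control (-2.24, SE 0.11, adjusted p = 8.95e-12) and the knockout 1.45-fold lower (-0.54, SE 0.11, adjusted p = 0.000237). Directly compared, the overexpressor was 3.38-fold under the knockout in myoblasts and 3.24-fold in myotubes. Thus Pparg and Cebpa, which rise together in adipogenesis, differed from control in opposite directions in overexpressor myoblasts and in the same direction in the myotubes of both clones. Cebpa shares 51 exon bases, 1.93% of its exons, with an antisense gene, Gm45091, which had 85 counts in all.

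Fabp4, the lipid carrier abundant in fat cells and a target of Pparg, was counted at no more than 24 per library (chromosome 3, 10204088 to 10208576, minus strand). Raw counts were 10, 11 and 5 in control myoblasts, 2, 16 and 3 in overexpressor myoblasts, and 12, 24 and 24 in knockout myoblasts. Control and overexpressor overlapped, and no difference from control was called (overexpressor -0.19, 95% interval -1.57 to 1.20; knockout 1.12, -0.08 to 2.33). Myotubes had 3, 0 and 2 counts in control, 0, 0 and 2 in the overexpressor, and 14, 22 and 13 in the knockout. Knockout myotubes stood apart from both other lines. Of the 9 libraries in which Fabp4 reached the minimum of the filter, 6 were those of the knockout line. Against control they were 8.46-fold higher (log2 fold change 3.08, SE 0.78, adjusted p = 0.00206), and 3.73 on the log2 scale without control library A. From pooled counts (49 against 2) the knockout was 32.3 times the overexpressor (95% counting interval 8.49 to 275). In myotubes, Fabp4 was thus higher in the line where Pparg was lowest. Adipoq, the adiponectin gene (chromosome 16, 23146536 to 23158028, plus strand), had at most 3 counts in any library, and Prdm16 (chromosome 4, 154316125 to 154636873, minus strand) had none.

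A list of 32 further genes of fat cells and their precursors held 25 that were tested. In overexpressor myoblasts 7 were higher than control, 11 lower and 7 not called (median log2 fold change -0.08, against 0.02 over all genes), and in knockout myoblasts 7, 12 and 6 (median -0.38, against 0.02). In overexpressor myotubes 3 were higher, 18 lower and 4 not called (median -0.56, against -0.04), and in knockout myotubes 6, 16 and 3 (median -0.66, against -0.07). The shares of all genes called higher and lower in these 4 comparisons are those given above for the members, from 19.7% to 37.0%. Cidec, Cfd and Ucp1, genes of mature white and brown fat cells, were among the genes at 0 in several groups, with Ucp1 at 0 in all 6. More genes of this list were lower than higher in all 4 comparisons, and whether that differs from other genes was not tested.

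Cd36, a fatty acid transporter that muscle also uses, had the highest fold change in all 4 comparisons among called genes of the list that reached 1 CPM. It rose from 0.183 ± 0.0795 CPM in control myoblasts to 1.74 ± 0.158 in overexpressor and 17.1 ± 1.86 in knockout myoblasts (SD, n = 3). Myotubes stood at 14.0 ± 2.57 CPM in control, 80.4 ± 54.0 in the overexpressor (log2 fold change 2.52, and 1.92 without overexpressor library C) and 57.8 ± 10.5 in the knockout (SD, n = 3). Klf4, an early factor in adipogenesis, was 5.90-fold higher in overexpressor myoblasts, at 236 ± 22.3 against 40.0 ± 3.28 CPM (SD, n = 3), and lower than control in the myotubes of both clones (1.90-fold in the overexpressor and 4.56-fold in the knockout). Klf5, another early factor, was 2.66-fold higher in knockout and 1.61-fold lower in overexpressor myoblasts. Lipe, hormone-sensitive lipase, was 2.40-fold lower in overexpressor and 2.62-fold lower in knockout myoblasts, and lower in the myotubes of both. Plin4, a lipid droplet coat protein, was 12.3-fold lower in knockout and 2.32-fold higher in overexpressor myoblasts, and lower in the myotubes of both clones. Cidea, a lipid droplet protein of brown fat whose mean was under 1 CPM in every group, is named after its values were seen. It held 2 counts in control and 121 in knockout myotubes, through which it passed the filter, so a difference there was built in.

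Klf15, a factor that promotes Pparg expression in fat and acts in muscle metabolism, held 1144 counts in control myotubes (7.57 ± 0.554 CPM, SD, n = 3). It held 3 counts in overexpressor myotubes, a pooled ratio of 550 (95% counting interval 188 to 2673), and 0 in knockout myotubes, so at least 417-fold lower over the group. Control, overexpressor and knockout myoblasts held 2, 4 and 3 counts, so nearly all of its counts came from control myotubes. Klf15 passed the filter through that group, so a difference from it was built into its being tested. Zfp423, a preadipocyte factor, fell from 14.1 ± 1.79 CPM in control to 0.451 ± 0.231 in overexpressor myotubes (SD, n = 3, 31.5-fold). It was called lower in knockout myotubes too, at 1.47 ± 0.264 CPM (SD, n = 3), and was 2.40-fold lower in overexpressor myoblasts. Dio2, the deiodinase of brown fat and muscle, was 14.1-fold lower in knockout than control myotubes and 2.08-fold higher in overexpressor myoblasts. Overexpressor myotubes were called lower than control as well, at 75.7 ± 41.3 against 134 ± 21.4 CPM (SD, n = 3). Acsl1, which activates fatty acids, was 1.56-fold higher in knockout myotubes, and was called higher in overexpressor myotubes and knockout myoblasts too. Scd1, the stearoyl desaturase, was 1.28-fold higher in overexpressor myotubes and 1.59-fold lower in knockout myotubes.

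**Figure D2:**
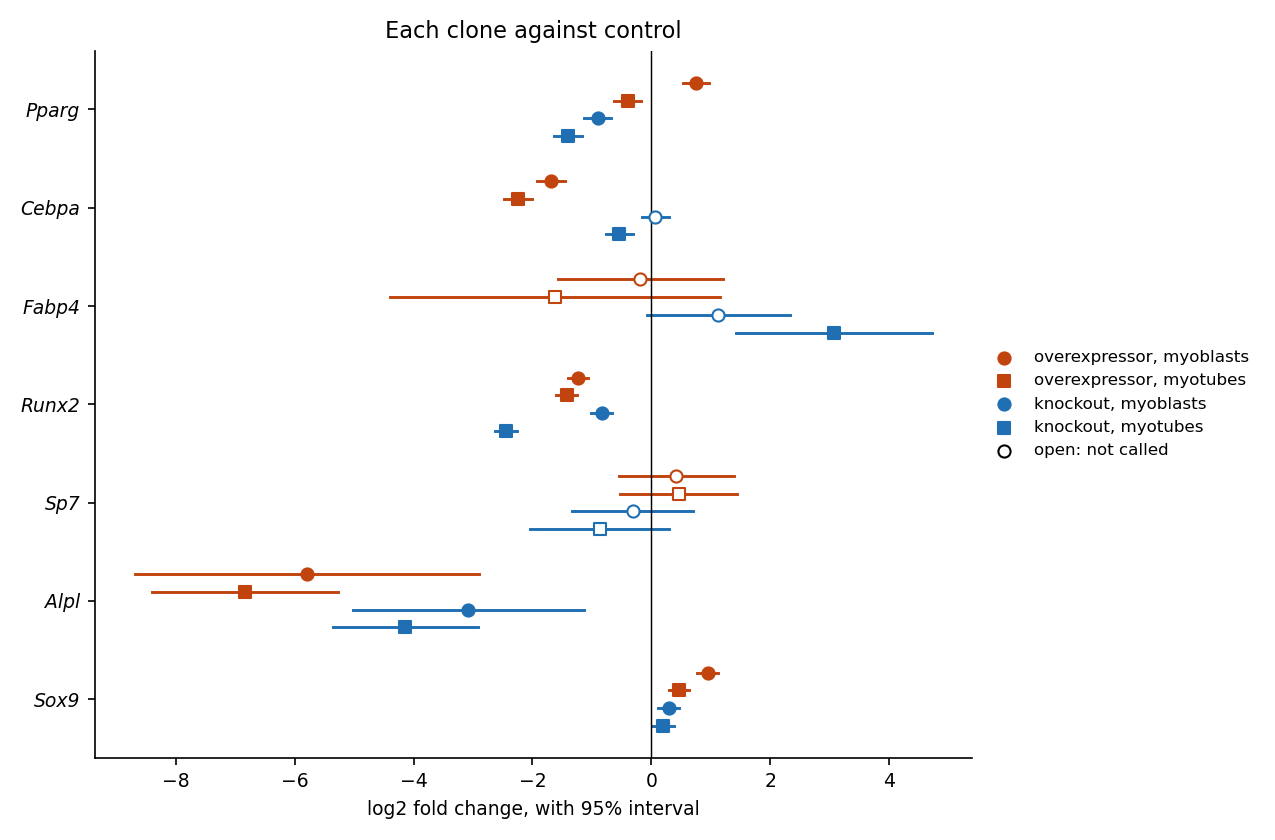
Log2 fold change of the 7 tested members in each clone against control, as fitted, with 95% intervals (horizontal axis; circles are myoblasts, squares myotubes, open symbols were not called). Runx2 and Alpl lie left of 0 in all 4 comparisons and Sox9 right of it; the fitted Alpl values rest on groups of 0 to 7 counts and depend on the prior count.

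Runx2, the regulator that the bone lineage requires, was lower than control in both clones at both stages. It lies on chromosome 17, 44495987 to 44814797, minus strand. Control myoblasts read 102, 95.2 and 103 CPM, overexpressor myoblasts 41.7, 45.4 and 39.9 and knockout myoblasts 57.4, 54.0 and 56.5. The 3 groups were well apart, with the overexpressor lowest. The overexpressor was 2.36-fold lower than control (log2 fold change -1.24, SE 0.08, adjusted p = 9.32e-10), and the knockout 1.78-fold lower (-0.83, SE 0.08, adjusted p = 1.08e-07).

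In myotubes the order of the clones was reversed. Runx2 read 73.2, 70.6 and 73.6 CPM in control, 25.9, 27.2 and 28.0 in the overexpressor, and 15.1, 13.6 and 11.2 in the knockout. Each group stood apart from the others. The overexpressor was 2.68-fold lower than control (-1.42, SE 0.08, adjusted p = 7.59e-11) and the knockout 5.45-fold lower (-2.45, SE 0.09, adjusted p = 8.36e-14). Overexpressor minus knockout was -0.40 in myoblasts (adjusted p = 0.000430) and 1.02 in myotubes (adjusted p = 2.05e-08). An antisense gene, Runx2os1, overlaps 519 of the 8837 exon bases of Runx2 (5.87%) and had 1426 counts; the use of strand in counting is not given in the sources used here.

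Sp7, which acts after Runx2 in bone-forming cells, was counted at 4 to 24 reads per library (chromosome 15, 102356606 to 102367182, minus strand). Myoblasts had 19, 8 and 9 counts in control, 15, 24 and 6 in the overexpressor, and 11, 6 and 13 in the knockout. Myotubes had 12, 7 and 8 in control, 19, 22 and 13 in the overexpressor, and 8, 4 and 4 in the knockout. No difference from control was called: the 95% intervals were -0.54 to 1.39 and -0.52 to 1.45 for the overexpressor in myoblasts and myotubes, and -1.33 to 0.70 and -2.04 to 0.30 for the knockout. Overexpressor myotubes were 2.52-fold above knockout myotubes (log2 fold change 1.33, SE 0.51, adjusted p = 0.0319). This call was lost without overexpressor library A or B or knockout library B or C (adjusted p = 0.0749, 0.0771, 0.118 and 0.0862).

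Alpl, the alkaline phosphatase whose activity marks the bone lineage, was counted mainly in control myotubes (chromosome 4, 137741733 to 137796384, minus strand). Control myotubes held 56, 30 and 33 counts, overexpressor myotubes 0, 0 and 1, and knockout myotubes 2, 3 and 2. Control myoblasts held 8, 10 and 1 counts, overexpressor myoblasts 0 in each library, and knockout myoblasts 1, 1 and 0. Neither clone reached the lowest control library in myotubes. The gene passed the filter through the control myotubes, so a difference there was built into its being tested, and in bulk RNA fewer expressing cells and less RNA per cell cannot be told apart, for Alpl as for every gene here.

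As pooled counts, control exceeded overexpressor myoblasts at least 5.89-fold (19 against 0 counts, floor of 3 counts over the group) and knockout myoblasts 9.96 times (95% counting interval 2.40 to 88.2). In myotubes control was 172 times the overexpressor (119 against 1 count, interval 30.2 to 6841) and 17.7-fold above the knockout in the fit (log2 fold change of the knockout -4.14, SE 0.57, adjusted p = 9.03e-06). All 4 differences were called, with adjusted p = 0.00262, 0.00942, 6.76e-07 and 9.03e-06 in that order. The 4 libraries in which Alpl reached the minimum of the filter were all of control, 3 of myotubes and 1 of myoblasts. These calls are therefore given as a description. No difference between the clones was called, at 7 against 1 count in myotubes (adjusted p = 0.0582).

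Bglap, the osteocalcin gene of mature bone cells (chromosome 3, 88383501 to 88384464, minus strand), held 0 to 4 counts per library. It has close copies beside it, Bglap2 (88377736 to 88378699) and Bglap3 (88368616 to 88372743), also on the minus strand. Of all stretches of 50 bases in Bglap transcripts, 56.6% occur in another copy, against 88.2% for Bglap2 and 6.99% for Bglap3, so reads can be assigned to the wrong copy or dropped, and the values of all 3 are uncertain. Bglap2 held 4, 4 and 3 counts in control myoblasts, 2, 1 and 1 in the overexpressor, and 2, 1 and 1 in the knockout. In myotubes it held 65, 50 and 36 counts in control, 76, 76 and 74 in the overexpressor, and 7, 22 and 12 in the knockout. The knockout myotubes were the low group, 4.05-fold under control (log2 fold change -2.02, SE 0.33, adjusted p = 3.28e-05), and overexpressor and control overlapped in CPM (0.043, 95% interval -0.55 to 0.63). Bglap2 passed the filter through its myotube libraries alone. Bglap3 had 2 to 14 counts per library and was not tested.

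**Figure D3:**
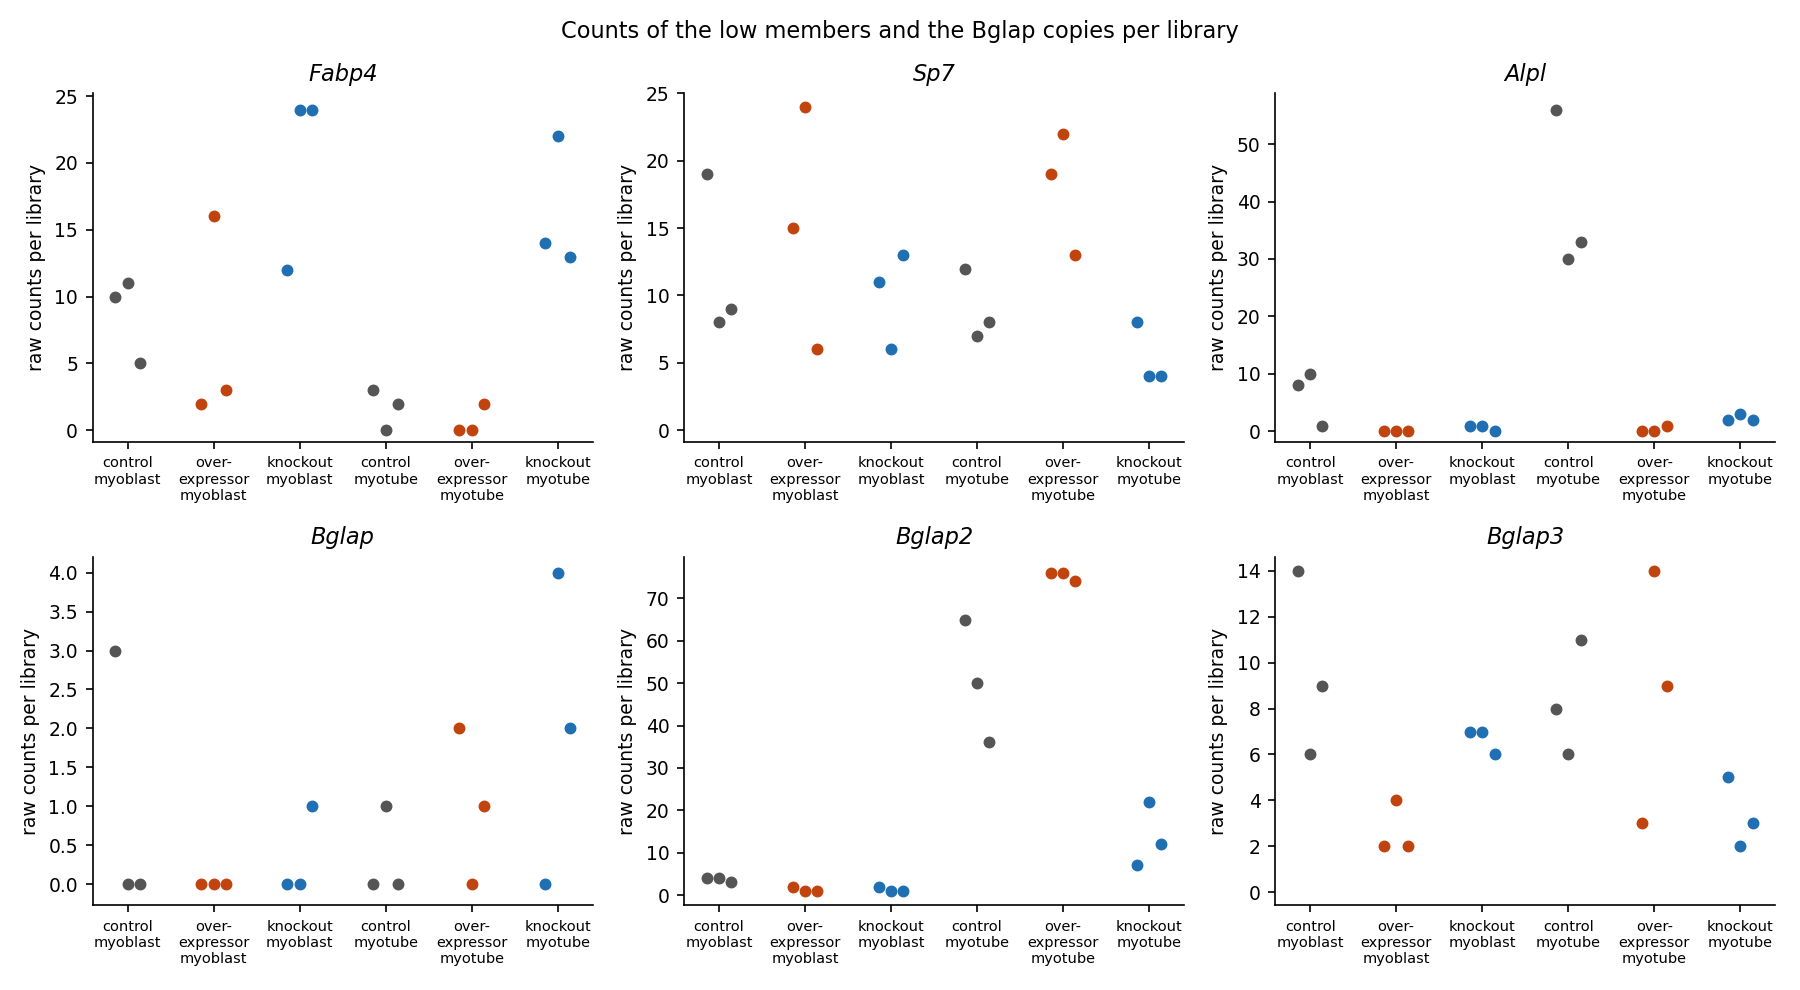
Raw counts per library of the members with few counts and of the osteocalcin copies (vertical axes, counts, not scaled for depth), by line and stage. Points are libraries; Alpl is concentrated in control myotubes, with 56, 30 and 33 counts, and Bglap2 in control and overexpressor myotubes.

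Of 32 further osteogenic genes, 28 were tested, Bglap2 among them. In overexpressor myoblasts 8 were higher, 8 lower and 12 not called (median log2 fold change -0.04, against 0.02 over all genes), and in knockout myoblasts 9, 12 and 7 (median -0.45, against 0.02). In overexpressor myotubes 8 were higher, 13 lower and 7 not called (median -0.08, against -0.04), and in knockout myotubes 5, 20 and 3 (median -0.91, against -0.07). Knockout myotubes had the most genes of this list below control, and also the largest share of all genes below it among these comparisons (37.0%, against 19.7%, 26.6% and 30.9%).

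Col1a1, the main collagen of bone and of connective tissue at large, had the lowest fold change in the overexpressor at both stages among called genes of the list that reached 1 CPM. Control myoblasts held 779 ± 24.6 CPM, overexpressor myoblasts 9.85 ± 0.710 and knockout myoblasts 429 ± 124, and myotubes 6184 ± 544 in control against 395 ± 88.7 in the overexpressor (SD, n = 3). These are 79.1-fold, 1.82-fold and 15.6-fold reductions. Enpp1, a regulator of mineral, was 3.25-fold lower in overexpressor and 1.42-fold higher in knockout myoblasts, and called lower in the myotubes of both. Msx1, a homeobox factor, was 2.10-fold lower in knockout myoblasts. It was also called lower in knockout myotubes and in the overexpressor at both stages. Spp1 (osteopontin) was 7.02-fold lower in knockout than in control myotubes, but higher than control in the overexpressor at both stages (1.84-fold in myoblasts and 1.43-fold in myotubes). In knockout myoblasts it was 1.39-fold lower. Omd, a proteoglycan of bone matrix, was 8.49-fold lower in overexpressor myotubes and 127-fold lower in knockout myotubes, the latter with 0.0568 ± 0.0843 CPM (SD, n = 3; log2 fold change -6.99, and -9.41 without knockout library A).

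Some genes of bone cells were higher in a clone at 1 stage or both. Tnfrsf11b (osteoprotegerin) was 4.22-fold higher in overexpressor and 5.04-fold higher in knockout myoblasts, but 4.15-fold and 4.03-fold lower in their myotubes. Phex, a peptidase of osteocytes, was 3.93-fold higher in overexpressor myoblasts and 1.87-fold higher in overexpressor myotubes, the latter with the call lost without control library A or B (adjusted p = 0.0549 and 0.0697) or overexpressor library C (adjusted p = 0.116). In the knockout Phex was lower than control at both stages (1.77-fold and 2.65-fold). Dmp1, an osteocyte matrix protein, was 3.07-fold higher in overexpressor and 7.22-fold higher in knockout myotubes, at 1.00 ± 0.303 CPM in control and 7.31 ± 0.788 in the knockout (SD, n = 3). As myoblasts it was 2.66-fold lower in the overexpressor and 3.25-fold higher in the knockout. Sost, the osteocyte gene for sclerostin, held 169 counts in knockout myoblasts against 1 in control (ratio 161, 95% counting interval 28.5 to 6404) and 281 against 2 in myotubes (128, 35.2 to 1066). Most of its counts were in the knockout line, so a difference there was built into its being tested. Besides Sost and Dmp1, the genes higher in knockout myotubes were the transcription factor genes Lef1 and Dlx5 and the phosphate transporter gene Slc20a2. Dlx5 held only 11 counts there, against 1 in control. It held 139 counts in knockout myoblasts, against 4 in control myoblasts. It passed the filter through the knockout myoblasts, so a difference in that group was built into its being tested. Sost, Dmp1, Lef1 and Slc20a2 were called higher in overexpressor myotubes too. The 20 genes lower in knockout myotubes included the matrix genes Col1a1, Col1a2, Sparc and Spp1, of which Col1a1, Col1a2 and Sparc were lower in overexpressor myotubes as well.

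Sox9 had the highest mean level per kilobase in all 6 groups, overlapping Cebpa in control myotubes, and was higher than control in both clones. It lies on chromosome 11, 112782224 to 112787760, plus strand, and encodes the factor that cartilage formation requires. Myoblasts read 85.9, 92.7 and 103 CPM in control, 190, 179 and 176 in the overexpressor and 122, 112 and 109 in the knockout. The groups did not overlap, and the overexpressor libraries were the high ones. The overexpressor difference was 1.94-fold (log2 fold change 0.95, SE 0.08, adjusted p = 4.05e-08), and that of the knockout 1.22-fold (0.29, SE 0.08, adjusted p = 0.00815), a call lost without control library A (adjusted p = 0.0544).

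In myotubes Sox9 read 53.9, 46.3 and 47.7 CPM in control, 64.5, 74.6 and 64.9 in the overexpressor, and 56.7, 61.0 and 52.0 in the knockout. The overexpressor lay above both others, while the knockout overlapped control. The overexpressor was 1.38-fold above control (0.46, SE 0.08, adjusted p = 0.000125). The knockout was 1.15-fold above it (0.20, SE 0.08, adjusted p = 0.0463). That call was lost without the filter on low counts (adjusted p = 0.0715) and without control library B or C or knockout library A or B (adjusted p = 0.169, 0.130, 0.0779 and 0.200). Overexpressor over knockout was 0.67 in myoblasts (adjusted p = 2.18e-06) and 0.27 in myotubes (adjusted p = 0.0119, and 0.0707 without overexpressor library B or 0.0654 without knockout library C).

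Of 27 further cartilage genes 19 were tested. In overexpressor myoblasts 3 were higher than control, 9 lower and 7 not called (median log2 fold change -0.60, against 0.02 over all genes), and in knockout myoblasts 6, 6 and 7 (median 0.17, against 0.02). In overexpressor myotubes 3 were higher, 7 lower and 9 not called (median -0.42, against -0.04), and in knockout myotubes 8, 5 and 6 (median 0.67, against -0.07). Against the knockout, the overexpressor had 3 higher and 11 lower in myoblasts (median -1.22, against -0.02 over all genes). In myotubes it had 0 higher and 10 lower (median -0.56, against 0.02), where library totals gave 1 and 9. Of all genes, 25.7% were called higher and 26.9% lower in myoblasts, and 30.6% and 29.1% in myotubes. For the clones against control, the shares are those given above for the members. Sox9 was higher in the overexpressor than in the knockout, while more of the listed cartilage genes were lower than higher there. Whether that differs from other genes was not tested. Acan and Col9a1, genes of cartilage matrix, were at 0 in control at both stages, and Matn1 in all 6 groups.

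Hapln1, which links hyaluronan to proteoglycan, held 574 counts in knockout and 1 in control myoblasts (ratio 547, 95% counting interval 97.9 to 21661). In myotubes it held 106 against 1. Nearly all of its counts were in the knockout line, so a difference there was built into its being tested. Col11a1, a minor collagen of cartilage and other matrices, was 6.08-fold higher in knockout myoblasts, at 81.7 ± 4.45 against 13.4 ± 0.883 CPM (SD, n = 3), and 2.51-fold and 3.81-fold higher in overexpressor and knockout myotubes. Sox6, a partner of Sox9, was 10.0-fold higher in knockout myotubes (1.39 ± 0.194 against 0.132 ± 0.0750 CPM, SD, n = 3), and was called higher in knockout myoblasts too. Fgfr3, a growth factor receptor of cartilage, was 1.57-fold higher in overexpressor myotubes and 2.13-fold lower in overexpressor myoblasts, and higher in the knockout at both stages (4.11-fold and 2.19-fold). Pthlh, a hormone that delays cartilage maturation, was 10.1-fold higher in overexpressor myoblasts and 1.64-fold lower in overexpressor myotubes.

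Prg4 (lubricin), a joint surface proteoglycan, was 6.06-fold higher in overexpressor and 2.36-fold lower in knockout myoblasts. In myotubes it was 15.4-fold and 16.5-fold lower than control in the overexpressor and the knockout, from 83.9 ± 25.8 CPM in control (SD, n = 3). Nkx3-2, an early cartilage factor, was 71.6-fold lower in overexpressor and 20.5-fold lower in knockout myotubes in the fit, from 1.79 ± 0.377 CPM in control (SD, n = 3). In myoblasts it was called lower in both clones too, at 3 counts in each against 54 in control. Most of its counts were in control, so a difference from control was built into its being tested. Col11a2 was 3.33-fold and Matn3 9.03-fold lower in overexpressor myoblasts, both genes of cartilage matrix, and Col11a2 was 2.34-fold higher in knockout myotubes. Pth1r, the receptor of Pthlh, was 3.48-fold lower in knockout myoblasts. It was also called lower in knockout myotubes and in the overexpressor at both stages.

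**Figure D4:**
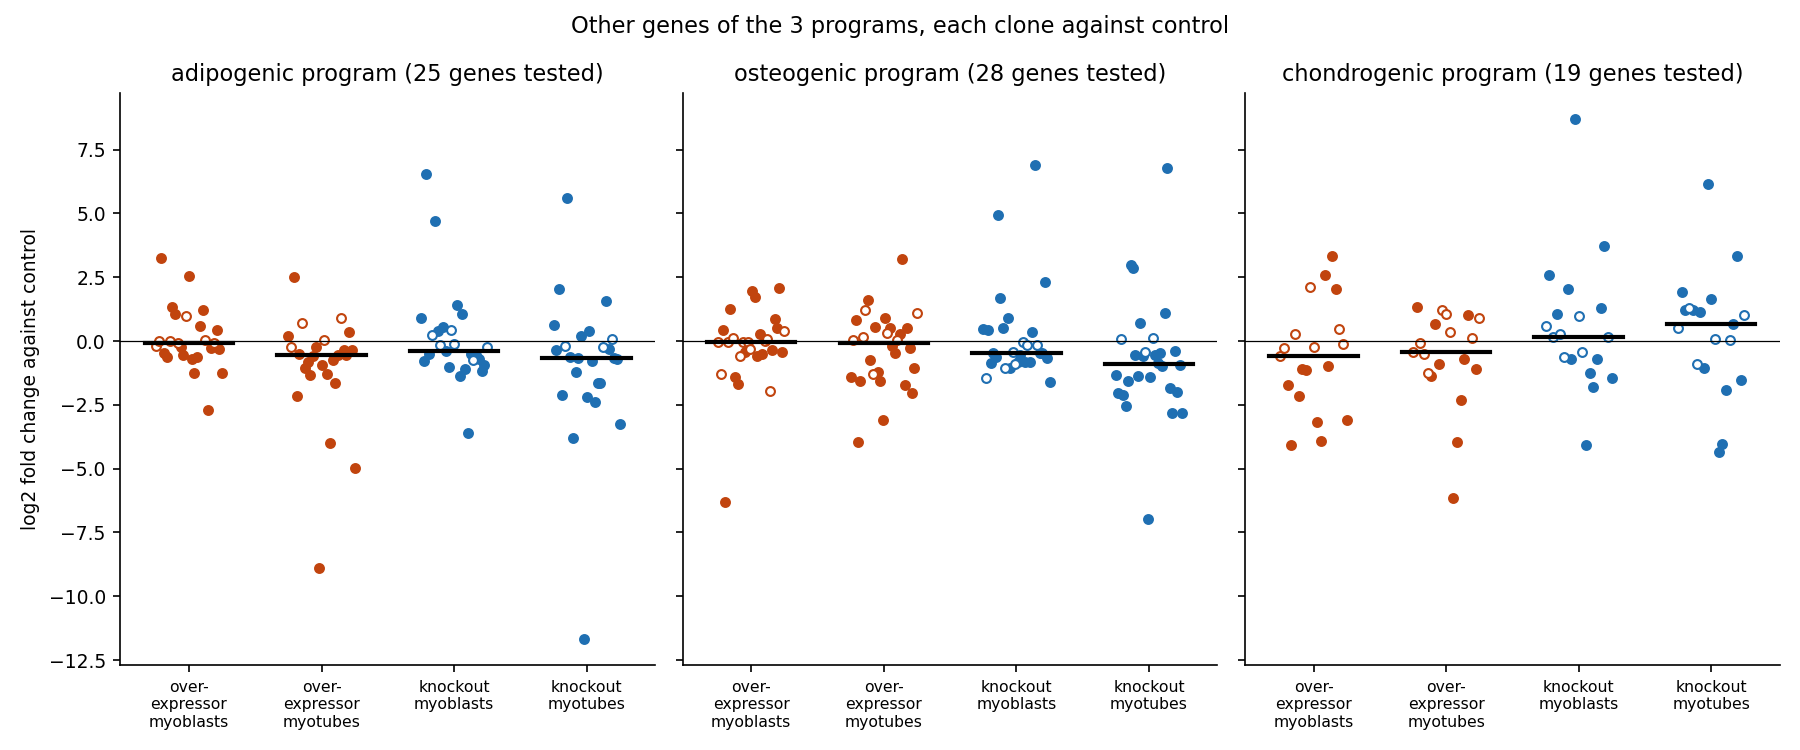
Log2 fold change against control (vertical axis, as fitted) of the tested genes of the 3 program lists, for each clone and stage; each point is a gene, filled points were called and the black line is the median. The adipogenic and osteogenic medians are lowest in knockout myotubes, at -0.66 and -0.91, and the chondrogenic median is highest there, at 0.67.

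During differentiation the regulators were lower in myotubes than in myoblasts in most cases. In control 5 members were called (against 62.8% of all genes), 1 higher and 4 lower (against 33.9% and 28.8%). In the overexpressor 5 were called (against 62.8%), 0 higher and 5 lower (against 29.8% and 33.0%). In the knockout 4 were called (against 65.4%), 0 higher and 4 lower (against 29.8% and 35.6%). The lower ones in control were Cebpa, Runx2, Sox9 and Fabp4, with Alpl the higher one. These counts, over the same 7 tested members, are again not read as a result about the members. Without control myotube library C the control count was 3, since Cebpa (adjusted p = 0.0868) and Fabp4 (adjusted p = 0.0579) then missed the threshold. Normalization moved the median log2 fold change of all genes by up to 0.24 in this control comparison (0.07 with TMM, -0.17 with library totals), by 0.16 in the knockout and by 0.07 in the overexpressor, so changes of that size in single genes depend on the scaling. For overexpressor and knockout myotubes against control it moved by up to 0.15 and 0.13. The muscle markers rose strongly at the same time, with 10 of 12 higher in control, 10 in overexpressor and 11 in knockout cells.

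Sox9 fell in all 3 lines, by 0.93 on the log2 scale in control (1.90-fold, adjusted p = 2.36e-08), 1.42 in the overexpressor (2.67-fold, adjusted p = 6.08e-11) and 1.01 in the knockout (2.02-fold, adjusted p = 1.08e-08). Runx2 fell by 0.46 in control (adjusted p = 8.06e-05), 0.65 in the overexpressor (adjusted p = 1.90e-06) and 2.07 in the knockout (adjusted p = 2.54e-12), where 56.0 ± 1.77 CPM became 13.3 ± 1.96 (SD, n = 3). Cebpa fell by 0.31 in control (adjusted p = 0.0156), 0.87 in the overexpressor (adjusted p = 1.91e-06) and 0.93 in the knockout (adjusted p = 7.05e-07). No library of myotubes reached the myoblasts of its own line for these 3 genes.

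Pparg was not called between control myotubes and myoblasts (-0.17, 95% interval -0.40 to 0.05, adjusted p = 0.168), but was with library totals (-0.41, adjusted p = 0.00382). It fell by 1.33 in the overexpressor (adjusted p = 3.43e-09), from 19.3 ± 0.274 to 7.66 ± 0.587 CPM, and by 0.68 in the knockout (adjusted p = 4.35e-05), from 6.12 ± 0.668 to 3.82 ± 0.397 CPM (SD, n = 3). Fabp4 was called lower in control (26 to 5 counts, adjusted p = 0.0250) and in the overexpressor (21 to 2 counts, pooled ratio 16.5, 95% counting interval 4.03 to 145, adjusted p = 0.00331). The control call was also lost without control myoblast library A or B or myotube library B (adjusted p = 0.0559, 0.0702 and 0.0817), and that of the overexpressor without myoblast library B (adjusted p = 0.0840), which holds 16 of the 21 counts. In the knockout Fabp4 was not called (-0.36, 95% interval -1.47 to 0.75).

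Among the bone genes, Alpl went from 19 counts in control myoblasts to 119 in myotubes (6.16-fold, log2 fold change 2.62, SE 0.49), against 0 to 1 count in the overexpressor and 2 to 7 in the knockout, where no change was called. Bglap2 was higher in the myotubes of all 3 lines, by 3.74 for control, 5.07 for the overexpressor and 3.17 for the knockout on the log2 scale. Both genes were tested because their myotube counts passed the filter, so a rise was built in, and these values are given as a description. With the counts of the 3 osteocalcin copies summed, the differences were 2.03, 3.73 and 1.10, and in control the other copies went from 3 to 1 count (Bglap) and from 29 to 25 (Bglap3). Sp7 was not called in any line (95% intervals -1.46 to 0.62, -1.30 to 0.54 and -2.13 to 0.18).

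**Figure D5:**
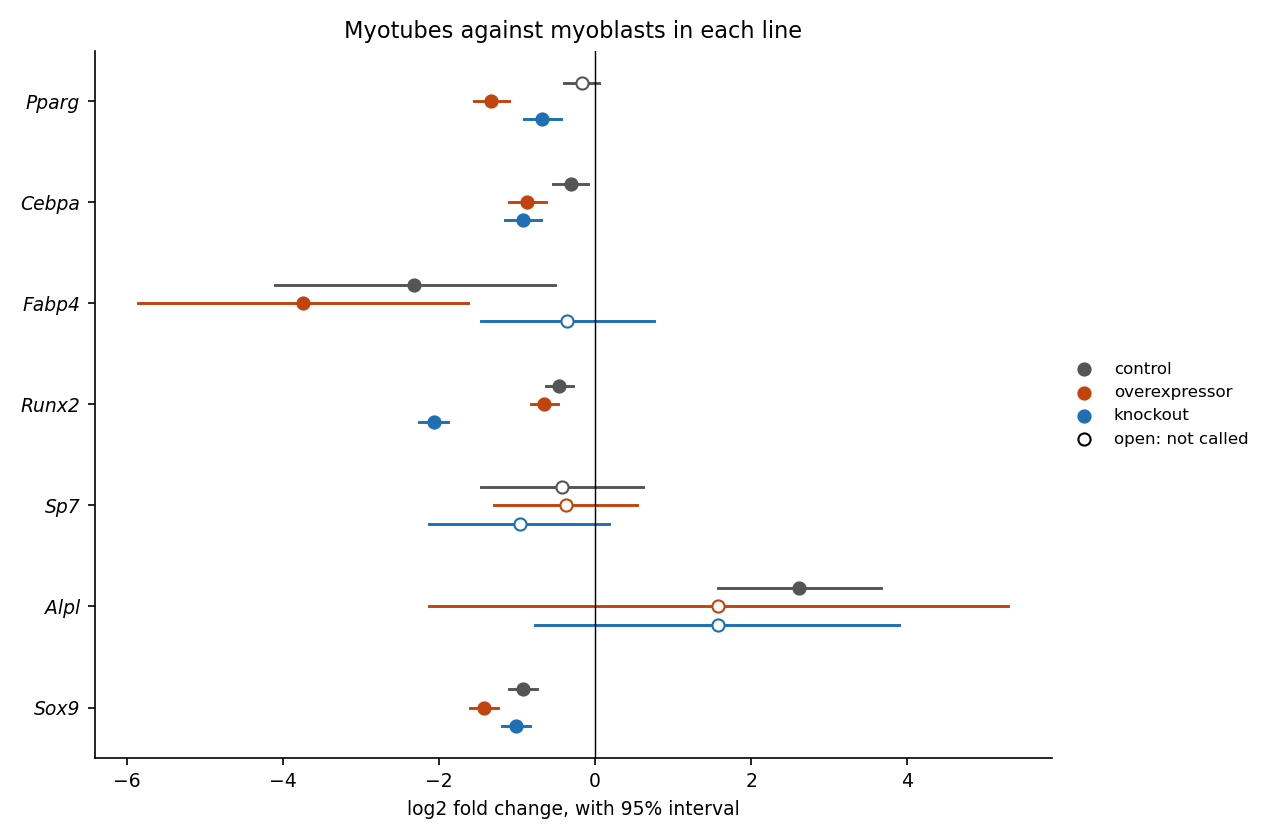
Log2 fold change of the 7 tested members in myotubes against myoblasts of the same line, as fitted, with 95% intervals (horizontal axis; open symbols were not called). Runx2 in the knockout lies at -2.07, against -0.46 and -0.65 in the other lines, the intervals of Fabp4, Sp7 and Alpl are wide, and Alpl in control is the called value above 0.

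The changes during differentiation were also compared between each clone and control as a difference of differences. Of the 10 members 3 were called for the overexpressor (against 39.0% of all genes), all more negative than in control (0 positive and 3 negative, against 16.6% and 22.3%). For the knockout 3 were called as well (against 50.1%), also all negative (against 20.2% positive and 29.9% negative). Of the 7 tested members, 3 are 42.9%. These counts and their shared direction are not read as a result about the members. For Pparg the difference was -1.16 in the overexpressor (SE 0.15, adjusted p = 5.96e-06) and -0.50 in the knockout (SE 0.15, adjusted p = 0.0118). The knockout call did not hold in either DESeq2 alternative, at 0.0763 by size factors and 0.0755 by the Wald test (adjusted p). Runx2 differed by -1.61 in the knockout (SE 0.12, adjusted p = 3.88e-09) and was not called in the overexpressor (-0.18, 95% interval -0.43 to 0.06). Cebpa differed by -0.55 in the overexpressor (adjusted p = 0.00784) and -0.61 in the knockout (adjusted p = 0.00271). The first of these was lost with library totals (adjusted p = 0.0701) and without overexpressor myotube library C (adjusted p = 0.0778). For Sox9 the difference was -0.49 in the overexpressor (adjusted p = 0.00300, and 0.0584 with library totals) and was not called in the knockout (-0.087, 95% interval -0.34 to 0.16). Scaling moved the median of all genes by up to 0.19 in the first comparison and 0.16 in the second, and with library totals Pparg alone was called in the overexpressor.

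The genes whose log2 level followed a member most closely over the 18 libraries were taken from 10816 genes with enough signal. The values are descriptions, since the 18 libraries fall into 6 groups that set most of the pattern. Closest to Pparg were Cat (catalase), Sptlc1 and Stx2, with Pearson's r of 0.987, 0.981 and 0.980. Closest to Runx2 were Tns3, Csf1 and Gng2, at 0.995, 0.979 and 0.977. Closest to Sox9 were Vangl2, M6pr and Creb5, at 0.981, 0.978 and 0.972. None of these 9 genes is a member or in the 3 program lists.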

How the data were processed

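The values used are raw counts of reads per Ensembl gene, as the authors deposited them, for 18 libraries of polyadenylated RNA. Per the submitters' processing notes, STAR 2.7.9a, featureCounts from Subread 2.0.3, FastQC 0.11.7, DESeq2 1.32.0 and the build mm10 were used; annotation release and use of strand are not given in the sources used here. Of 55450 gene IDs, 55190 matched GENCODE M21 (GRCm38), and the 260 others held 0.00589% of the counts. Groups came from the sample titles.

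The test was that of edgeR 4.0.16 (R 4.3.3): TMM factors (0.895 to 1.08), filterByExpr by group (17912 genes kept), robust quasi-likelihood fit of all 18 libraries with 12 residual degrees of freedom, 11 contrasts, and Benjamini-Hochberg adjustment over all tested genes with threshold 0.05. The fit was tested on simulated counts, drawn with its own dispersions. Genes were changed in overexpressor myoblasts only, and far fewer than were called here. That test cannot show how the scaling holds in these data. A standard error is the log2 fold change divided by the square root of F. Levels are TMM-scaled CPM, per kilobase of merged exons when genes are compared. A count of 0 allows 3 counts, or 0.0375 to 0.0693 CPM in a library; these floors and the counting intervals cover counting error only. Counts of replicate libraries differed by more than sampling noise in every pair, by unequal amounts. The chi-square per degree of freedom was 108 and 103 in overexpressor myotube pairs with library C, and 21.0 without it. In overexpressor myoblasts it was 34.1 and 30.2 in pairs with library B, and 7.86 without it. The other groups ran from 4.46 to 50.4.

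The members and gene lists were chosen with earlier results of these data known. Besides the members and the osteocalcin copies, the text names, from each program list and each clone against control, the 2 highest and 2 lowest called genes with at least 1 CPM in the higher group, and the 3 genes most like Pparg, Runx2 and Sox9. Genes named for levels at 0, and Cidea, Lef1, Dlx5, Slc20a2, Col1a2 and Sparc, were chosen after their values were seen. Klf15, Cidea, Sost, Dlx5, Hapln1 and Nkx3-2, counted mainly in 1 group or line, enter the list counts and medians. Alternatives were DESeq2 size factors, library totals, no filter, the DESeq2 1.42.0 Wald test, fits of the compared groups alone, a replicate block, and leaving out each library. The authors' second table, of transformed values, was not used.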

Additional observations from a re-analysis of the deposited data

Results flagged for a closer look

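The change from myoblast to myotube differed between a clone and control, by edgeR's test of the difference itself, for 4 of the members. In each comparison 3 were called, 42.9% of the 7 tested members. Of all genes, 39.0% were called for the overexpressor and 50.1% for the knockout. These counts are not read as a result about the members. Pparg, not called in control's own differentiation, was -1.16 on the log2 scale in the overexpressor relative to control (adjusted p = 5.96e-06) and -0.50 in the knockout (adjusted p = 0.0118). Runx2 was -1.61 in the knockout (adjusted p = 3.88e-09). Cebpa was -0.55 in the overexpressor (adjusted p = 0.00784) and -0.61 in the knockout (adjusted p = 0.00271), and Sox9 was -0.49 in the overexpressor (adjusted p = 0.00300). With library totals the overexpressor calls of Cebpa and Sox9 were lost (adjusted p = 0.0701 and 0.0584). The Cebpa call also missed the threshold when overexpressor myotube library C was left out (adjusted p = 0.0778). The knockout value of Pparg missed it in both DESeq2 alternatives, at 0.0763 by size factors and 0.0755 by the Wald test (adjusted p). Control's own change in Pparg was called under library totals (-0.41, adjusted p = 0.00382).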

How the results depend on the processing

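Each clone is 1 line, so clone and genotype cannot be told apart, and Fabp4, Sp7, Alpl and the osteocalcin copies rest on few counts. The number of members called was within 1.5 times of the reported one except for control differentiation, where leaving out a library gave 3 to 5, and for the overexpressor's difference in response, where library totals gave 1. The cause was not tested. Calls lost by single members are given beside them. Calls gained were Fabp4 in knockout myoblasts and in the knockout's difference in response when the compared groups were fitted alone (adjusted p = 0.0248 and 0.0340), Fabp4 between the clones as myoblasts without overexpressor library B (adjusted p = 0.00252), and Alpl between the clones as myotubes with the DESeq2 Wald test (adjusted p = 0.0448) or without overexpressor library C (adjusted p = 0.0403).

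The values that changed sign were not called in the reported fit. The overexpressor's difference in response of Runx2 was 0.0033 with library totals, and the knockout's difference in response of Sox9 was 0.068 with DESeq2 size factors and with the DESeq2 Wald test and 0.0093 with the compared groups alone. Leaving out 1 library, Fabp4 ranged from -1.64 to 0.28 in overexpressor myoblasts and from -3.66 to 0.02 in the overexpressor's difference in response. Sp7 ranged from -0.098 to 0.85 in overexpressor and -0.55 to 0.12 in knockout myoblasts, from -0.66 to 0.011 and -0.72 to 0.14 in control and overexpressor differentiation, and from -0.39 to 0.56 in the overexpressor's difference in response. Alpl ranged from 0 to 2.02 in overexpressor differentiation. Bglap2 ranged from -0.17 to 0.61 between the clones as myoblasts and from -0.20 to 0.22 in overexpressor myotubes. Bglap itself was not tested, so its alternatives were run on Bglap2; with the 3 copies summed these values of Bglap2 were -0.87 and -0.012, and the sum was called in overexpressor myoblasts (-1.71, adjusted p = 0.00453) and in the overexpressor's difference in response (1.69, adjusted p = 0.0138).

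The replicate letters did not pair the libraries: of 45 same-letter pairs of groups, 3 had correlated deviations over 0.1 (r -0.36 to 0.26), and in 10 a library was closest to its own letter. With the letters as a replicate block, Sox9 in knockout myotubes was no longer called (log2 fold change 0.20, adjusted p = 0.0621), and no other call of a member changed.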
